A study of Mus musculus with 38 samples.

Results

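The sites described here are 1016 regions of open chromatin that were found late in the SALL4-delN12 culture and not in the SALL4-WT culture. They are the ATAC-seq peaks of SALL4-delN12 at day 11 that had a score of at least 100, overlapped a SALL4-delN12 peak at day 9 by at least 1 bp, and overlapped no peak of the mouse embryonic fibroblasts (MEFs) or of SALL4-WT at day 9 or day 11. Of the 78517 peaks of SALL4-delN12 at day 11, 41123 reached the score, 38237 of these also had a day 9 peak, 3997 had no MEF peak, 1317 had no SALL4-WT peak at day 11, and 1016 had none at day 9 either. The measured peak scores of these 5 libraries therefore chose the members, and their presence at days 9 and 11 and absence from MEFs and late SALL4-WT cells are a description and not a result. The score is the peak caller's transformed p-value, it was not scaled between libraries, and no list holds a peak under a score of 50, so an absent peak is one that did not reach 50. The members just inside the limit scored 100.02, 100.14 and 100.17, and the peaks just outside it 99.99, 99.98 and 99.93.

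SALL4 is a zinc finger transcription factor of early embryonic cells that recruits the NuRD complex, a nucleosome remodeler and histone deacetylase, through a short stretch at its N-terminus. Primitive endoderm (PrE) is the extra-embryonic layer of the blastocyst that gives rise to parietal endoderm, which secretes a laminin and collagen IV matrix, and to visceral endoderm, and it is marked by GATA, SOX and FOXA family factors. ATAC-seq reads open chromatin with a transposase, and acetylation of histone H3 at lysine 27 (H3K27ac) marks active promoters and enhancers.

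Both forms were delivered to MEFs as the single factor by pMXs retrovirus, either full-length (SALL4-WT) or lacking the N-terminal residues needed to bind NuRD (SALL4-delN12). The MEFs came from embryos of male OG2 mice, which carry an Oct4-GFP transgene, crossed to 129S4/SvJaeJ females. All cells of both forms were kept in iCD3 medium (Y27632, CHIR99021, bFGF, SGC0946, mLIF, LSD1-HCL, vitamin C and TV) and received no BMP4, and ATAC-seq and RNA-seq were made at days 1, 5, 9 and 11 and Cut&Tag of SALL4 and H3K27ac at day 6. Each form and day is 1 sample of a mixed, unsorted culture, so the forms were not tested against each other within a day, a test over the matched days was not run, and the intervals below are exact (Clopper-Pearson) 95% intervals that cover counting error over sites only. In such bulk samples, fewer cells with an open site and a smaller opening in each cell cannot be told apart.

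The following are the 200 bp around the centre of 8 chosen members, with GATA, FOX and SOX letters in capitals. They are read from the plus strand of mm10, and the first 4 are the members among the 10 of highest score that hold GATA letters in this window. These 4 are not typical, since 28.8% of all members hold GATA letters in 200 bp, against 11.6% of all day 11 peaks. The other 4 lie at genes of the endoderm lists used below, Ihh, Fbln2, Col4a1 with Col4a2, and Sox17.
Macrod2 intron site, chr2:140748708-140748907: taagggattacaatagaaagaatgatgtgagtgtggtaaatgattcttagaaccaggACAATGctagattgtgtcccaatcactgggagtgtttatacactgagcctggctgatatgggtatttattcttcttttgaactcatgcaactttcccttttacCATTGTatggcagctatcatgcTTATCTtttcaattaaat
Tns3 upstream site, chr11:8709708-8709907: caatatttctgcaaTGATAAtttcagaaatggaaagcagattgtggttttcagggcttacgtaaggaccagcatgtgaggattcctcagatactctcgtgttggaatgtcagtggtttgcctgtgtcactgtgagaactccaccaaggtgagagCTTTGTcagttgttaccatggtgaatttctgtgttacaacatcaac
Rps6ka1 intron site, chr4:133879181-133879380: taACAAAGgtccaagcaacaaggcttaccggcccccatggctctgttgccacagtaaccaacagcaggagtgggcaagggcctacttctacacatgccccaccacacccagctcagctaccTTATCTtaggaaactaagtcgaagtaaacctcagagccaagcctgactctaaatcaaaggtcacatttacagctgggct
Rps15a distal site, chr7:118026273-118026472: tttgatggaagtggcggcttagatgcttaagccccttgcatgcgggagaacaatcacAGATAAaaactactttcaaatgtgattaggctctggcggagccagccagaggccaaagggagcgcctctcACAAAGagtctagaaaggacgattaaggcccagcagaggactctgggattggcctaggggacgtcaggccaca
Nhej1 intron site near Ihh, chr1:74971810-74972009: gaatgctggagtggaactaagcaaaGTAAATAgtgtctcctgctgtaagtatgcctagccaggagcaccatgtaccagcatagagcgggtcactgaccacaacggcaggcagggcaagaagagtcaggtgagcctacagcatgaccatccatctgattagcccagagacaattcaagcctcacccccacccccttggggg
Fbln2 intron site, chr6:91245527-91245726: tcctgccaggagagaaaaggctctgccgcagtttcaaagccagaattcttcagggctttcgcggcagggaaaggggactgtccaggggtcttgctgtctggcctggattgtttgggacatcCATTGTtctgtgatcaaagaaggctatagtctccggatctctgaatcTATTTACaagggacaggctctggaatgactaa
Col4a2 intron site, chr8:11315501-11315700: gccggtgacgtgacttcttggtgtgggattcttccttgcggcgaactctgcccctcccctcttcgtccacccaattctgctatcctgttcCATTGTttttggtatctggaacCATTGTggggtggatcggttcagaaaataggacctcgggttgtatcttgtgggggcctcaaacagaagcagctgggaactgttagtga
Sox17 exon site, chr1:4492098-4492297: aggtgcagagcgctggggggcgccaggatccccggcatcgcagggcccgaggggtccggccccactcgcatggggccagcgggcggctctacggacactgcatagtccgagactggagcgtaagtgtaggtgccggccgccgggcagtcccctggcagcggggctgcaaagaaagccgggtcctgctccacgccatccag
The first 4 windows also hold SOX letters, and the window in the coding exon of Sox17 holds none of the 3 motifs. The number of motif matches in a 200 bp window is a description of its letters and does not show that a factor was bound.

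The members were narrow and mostly of modest score. Their median width was 256.5 bp (69 to 1053 bp), and their median score was 131 (100.02 to 539.93), against 304 bp and 195 for all 41123 day 11 peaks of SALL4-delN12 with a score of at least 100. The overlapping day 9 peaks had a median score of 109 (50.18 to 615.12). The member of highest score, 539.93, lay 0.015 kb from a start site of Erlin2 on chr8:27031007-27031590, and the next, 528.81, in an intron of Macrod2 on chr2:140748491-140749124. Scores did not climb in parallel over days, since the Macrod2 site scored 61.31 at day 1, had no peak at day 5 and scored 74.22 at day 9, whereas a site in a Cdh13 intron on chr8:118986974-118987387 scored 290.45, 442.81, 615.12 and 427.71 at days 1, 5, 9 and 11.

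Many of the sites had a peak in an early SALL4-delN12 library. At day 1, 414 members (40.7%, interval 37.7 to 43.8%) already overlapped a SALL4-delN12 peak, and at day 5, 682 (67.1%, 64.1 to 70%). Over all 41123 day 11 peaks these shares were 83.9% and 89.3%. The early peaks counted from a score of 50, and with a minimum of 100, as the members had at day 11, the day 5 share was 35.6% for SALL4-delN12 and 2.17% for SALL4-WT. The shares of all day 11 peaks in this paragraph are for the minimum of 50 and do not apply to these 2 values. By earlier presence, 363 members (35.7%) had a SALL4-delN12 peak at both early days, 319 (31.4%) had none at day 1 but had one at day 5, 51 (5.02%) had one at day 1 only, and 283 (27.9%) had none before day 9. The same classes held 80.6%, 8.7%, 3.26% and 7.42% of all day 11 peaks. With the minimum of 50, these 283 were the members with no peak in an earlier library of the form. The early SALL4-WT libraries, which the selection did not use, held few of the sites. Only 53 members (5.22%, 3.93 to 6.77%) overlapped a SALL4-WT peak at day 1, against 71.2% of all day 11 peaks, and 122 (12%, 10.1 to 14.2%) at day 5, against 85.4%. The day 5 share was 24.9% when a peak within 1 kb counted. At neither early day did 858 members (84.4%) have a SALL4-WT peak. The SALL4-WT lists were of similar size to the SALL4-delN12 lists, with 83821 against 94828 peaks at day 1 and 98422 against 89524 at day 5.

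**Figure D1:**
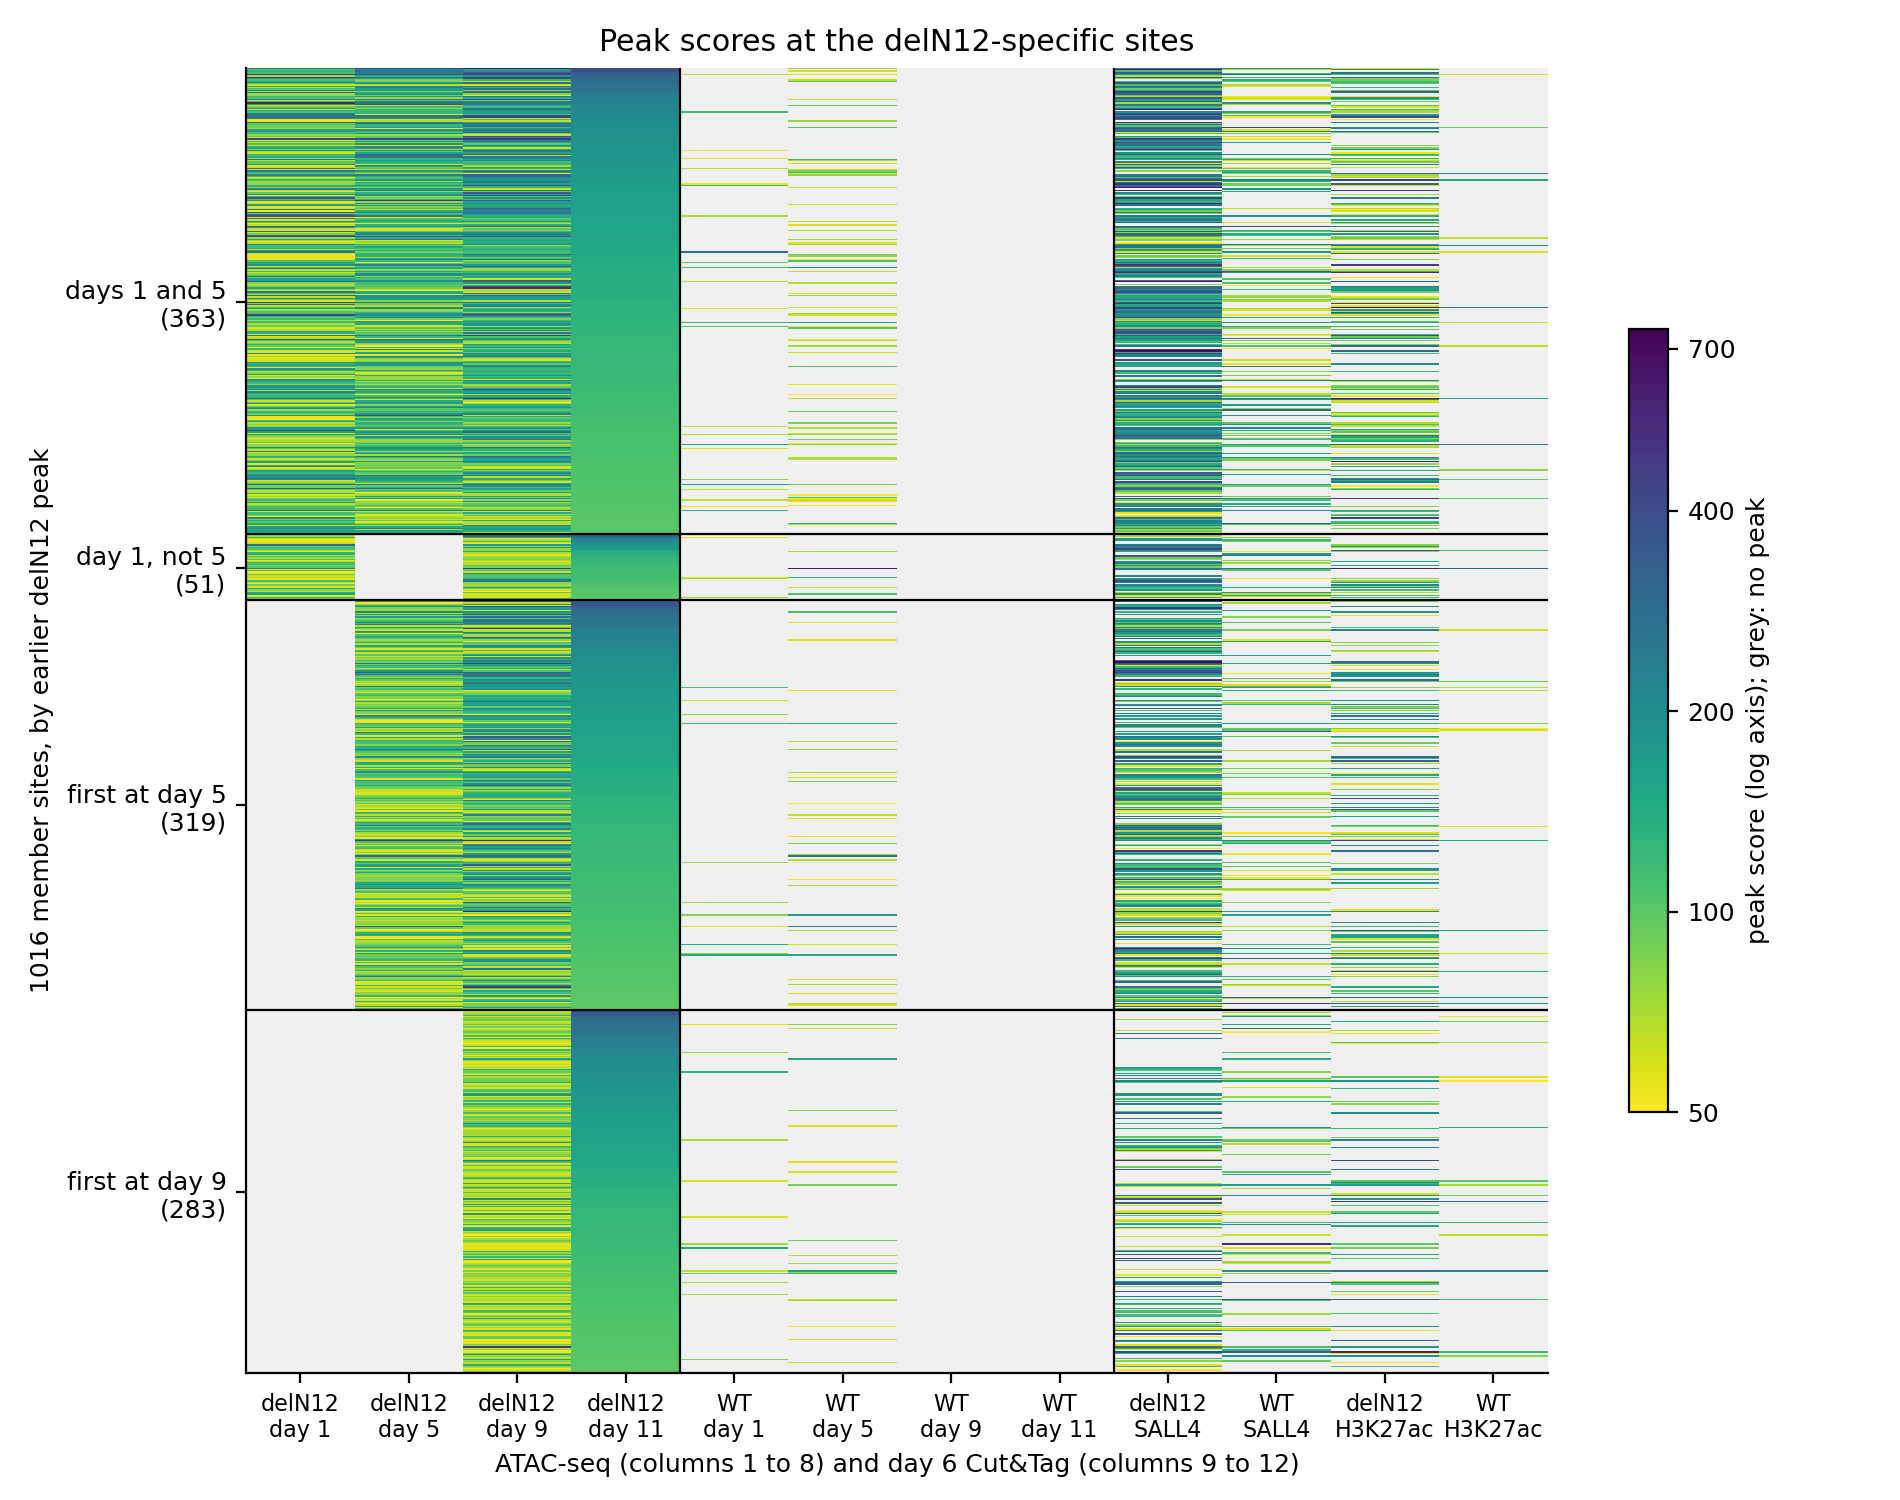
Peak score (color, log axis) of each of the 1016 members (rows) in the ATAC-seq libraries of SALL4-delN12 and SALL4-WT at days 1, 5, 9 and 11 and in the day 6 Cut&Tag libraries, with grey where no peak overlapped. Rows are grouped by earlier SALL4-delN12 peaks (363, 51, 319 and 283 sites); the SALL4-WT columns at days 9 and 11 are empty by the selection, and the SALL4-delN12 SALL4 column is filled for most rows of the upper groups.

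The same rule with the forms exchanged gave 1749 sites specific to SALL4-WT, and 2121 day 11 peaks of SALL4-delN12 without a MEF peak were present in both forms at days 9 and 11. At day 5, 1574 of the SALL4-WT sites (90%) overlapped a SALL4-WT peak and 504 (28.8%) a SALL4-delN12 peak. The delN12-specific sites thus overlapped the other form at day 5 in 12% of cases and the WT-specific sites in 28.8%. These shares come from different libraries, 1 for each form, and their difference was not tested.

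At day 6, between the early and the late ATAC-seq samples, SALL4 itself was mapped at most members in the SALL4-delN12 cells. A SALL4 peak of SALL4-delN12 overlapped 684 members (67.3%, 64.3 to 70.2%), close to the 66.5% of all day 11 peaks. A SALL4 peak of SALL4-WT overlapped 270 members (26.6%, 23.9 to 29.4%), against 70.7% of all day 11 peaks. With only peaks that scored at least 100 the member share was 12.9%, to which the 70.7% does not apply. Both forms had a peak at 193 members (19%), SALL4-delN12 alone at 491 (48.3%), SALL4-WT alone at 77 (7.58%) and neither at 255 (25.1%). In all day 11 peaks, both forms had a peak at 54.6%, SALL4-delN12 alone at 11.9%, SALL4-WT alone at 16.1% and neither at 17.4%. The 2 SALL4 lists were of similar size, 67310 and 69475 peaks, and with equal numbers of the highest-scoring peaks the shares were 67.3% and 25.4%. Where a peak was present, its median score was 168 with SALL4-delN12 (684 members) and 95.5 with SALL4-WT (270 members). These are different members and unscaled scores, so the medians do not compare the strength of binding. The sites specific to SALL4-WT gave the mirror image, with a SALL4 peak of SALL4-WT at 1235 (70.6%) and of SALL4-delN12 at 413 (23.6%).

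SALL4 occupancy went with early opening. Of the 363 members open at days 1 and 5, 318 (87.6%, 83.8 to 90.8%) had a SALL4-delN12 SALL4 peak, compared with 228 of the 319 that were open from day 5 (71.5%, 66.2 to 76.4%) and 102 of the 283 that had no peak before day 9 (36%, 30.4 to 41.9%). All day 11 peaks in the same classes had 73.2%, 48.7% and 23.4%, the same order, so this was not particular to the members. For SALL4-WT the shares in the same groups were 35.3%, 22.3% and 19.1%, against 79.5%, 39.5% and 23.1% of all day 11 peaks. The day 11 score did not follow this order, with medians of 133, 131 and 132. The 51 members with a peak at day 1 but not at day 5 had a SALL4-delN12 SALL4 peak in 70.6% of cases (56.2 to 82.5%), against 47.5% of all day 11 peaks in this class. A SALL4-delN12 H3K27ac peak was at 35.3% of the 51 (22.4 to 49.9%), against 48.8%. The median day 11 score of the 51 was 119.7.

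H3K27ac was found at a smaller share of the members. A SALL4-delN12 H3K27ac peak overlapped 350 members (34.4%, 31.5 to 37.5%), against 73.7% of all day 11 peaks, and a SALL4-WT H3K27ac peak overlapped 48 (4.72%, 3.5 to 6.22%), against 44.7%. At the WT-specific sites these shares were 24.1% and 15.1%, and at the sites of both forms 65.9% and 23.6%. The SALL4-delN12 share was thus the larger in every group, also at the WT-specific sites, where the SALL4 peaks had gone the other way. With only peaks that scored at least 100, the member shares were 20.9% and 1.87%, and those of all day 11 peaks are not given. Without members that had a MEF or SALL4-WT peak within 500 bp, the member shares were 27.8% and 2.4%. The mark was on SALL4-delN12 cells alone at 306 members (30.1%), on SALL4-WT cells alone at 4, on both at 44 and on neither at 662 (65.2%). Over all day 11 peaks SALL4-delN12 cells alone had the mark at 30.4%, near the share of the members, and neither form at 24.9%. The lists differed in size, 45599 peaks with SALL4-delN12 and 19841 with SALL4-WT. With the 19841 highest-scoring peaks of each, a comparison chosen after the list sizes were seen, the shares were 11.4% and 4.72%. H3K27ac also went with early opening, being present in SALL4-delN12 cells at 178 of the 363 members open at days 1 and 5 (49%), 103 of the 319 open from day 5 (32.3%) and 51 of the 283 without an earlier peak (18%). All day 11 peaks in these classes had 82.1%, 47.4% and 24.1%, again in the same order. It was present at 309 of the 684 members with a SALL4-delN12 SALL4 peak (45.2%, 41.4 to 49%) and at 41 of the 332 without one (12.3%, 9.01 to 16.4%). The same split was 83.6% and 53.9% over all day 11 peaks and 76.8% and 34.1% over sites of both forms, so it was not particular to the members. Cut&Tag of day 6 precedes the days that defined the members, and no day 9 or day 11 Cut&Tag was analysed here.

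**Figure D2:**
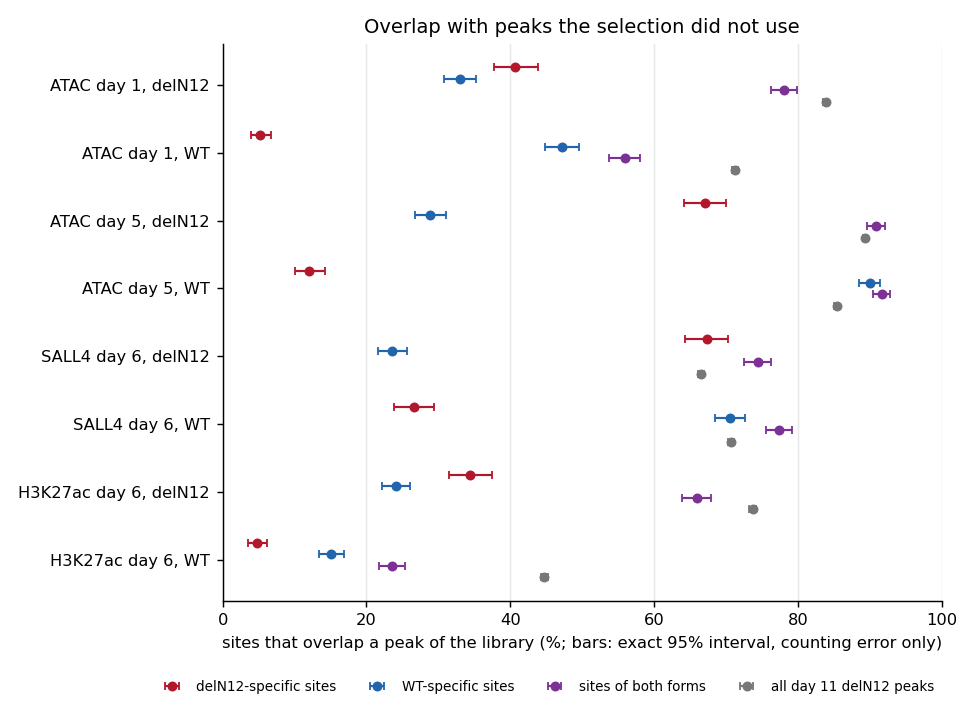
Share of sites (%, with exact 95% intervals) that overlap a peak of each library the selection did not use, for the 1016 members, the 1749 WT-specific sites, the 2121 sites of both forms and all 41123 day 11 SALL4-delN12 peaks. The members lie at 67.1% for SALL4-delN12 ATAC-seq at day 5 and at 12% for SALL4-WT, and at 34.4% and 4.72% for H3K27ac of the forms. The WT-specific sites lie at 24.1% and 15.1% for H3K27ac of SALL4-delN12 and SALL4-WT.

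The members were mostly away from promoters. A member centre lay within 2 kb of a transcription start site in 121 cases (11.9%, 9.98 to 14.1%), against 16.3% of the WT-specific sites, 18.2% of the sites of both forms and 45.4% of all day 11 peaks. The centre was in an intron for 484 members (47.6%), between genes for 472 (46.5%), in an untranslated exon for 24, in a noncoding exon for 23 and in a coding exon for 13 (1.28%). Of all day 11 peaks, 38.9% were in an intron, 39.7% between genes, 13.2% in an untranslated exon and 3.82% in a coding exon. The median distance to a start site was 12014.5 bp. The members were spread over the genome, with 957 loci when members within 50 kb of each other were joined, and 51 loci held 2 or more of them (110 members). The densest held 4 members within the gene of the glucose transporter Slc2a3 on chromosome 6. Because 45.4% of all day 11 peaks are at promoters, the shares were also taken over sites more than 2 kb from a start site, 895 members and 22425 peaks. There the SALL4-delN12 SALL4 share was 69.8% of members and 72.3% of peaks, that of SALL4-WT SALL4 25.4% and 65%, and that of SALL4-delN12 H3K27ac 34% and 63.2%.

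Motif letters were searched on both strands in the 50 bp around each centre, since no summits are listed. GATA letters (AGATAA or TGATAA), the core bound by the GATA factors of endoderm and blood, were in 77 members (7.58%, 6.03 to 9.38%), against 2.84% of all day 11 peaks, 1.54% of the WT-specific sites and 4.2% of the sites of both forms. SOX letters (ACAATG or ACAAAG) were in 118 members (11.6%, 9.71 to 13.7%), against 5.66%, 5.49% and 9.34%. FOX letters (TGTTTAC or TGTTTGC or the variant TATTTAC or the variant TGTTGAC) were in 47 (4.63%, 3.42 to 6.1%), against 2.42%, 2.46% and 4.15%. At least 1 of these 3 motifs was in 224 members (22%), against 10.3% of all day 11 peaks, 8.92% of the WT-specific sites and 16.7% of the sites of both forms. The letters of TEAD (GGAATG) were in 104 members (10.2%) and of RUNX (TGTGGT) in 101 (9.94%), against 5.91% and 5.64% of all day 11 peaks. AP-1 letters (TGACTCA or TGAGTCA), bound by the stress and growth factors of the FOS and JUN families, were in 57 (5.61%, 4.28 to 7.21%), against 7.2% of all day 11 peaks and 9.03% of the WT-specific sites. A match to the core of the CTCF motif was in 2 members (0.197%) against 2.05%, and KLF letters (GGGTGTGG or GGGCGTGG) in 9 (0.886%) against 1.49%.

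The rarer letters were near the background or too few to read. OCT letters (ATGCAAAT) were in 3 members (0.295%) against 0.253% of all day 11 peaks, HNF4 letters (CAAAGTCCA) in 0 against 0.0559%, and the AT-rich letters AATATT, the kind of sequence SALL4 is known to bind, in 10 (0.984%, 0.473 to 1.8%) against 0.503%. The count of 0 for HNF4 allows a share of up to 0.362% (upper exact limit). Away from start sites, GATA letters were in 7.6% of the 895 members and 4.04% of the 22425 peaks, and SOX letters in 11.8% (9.8 to 14.1%) and 7.6%. For FOX (4.36%, 3.12 to 5.91%, against 3.34%), TEAD (10.4%, 8.47 to 12.6%, against 8.38%) and RUNX (9.61%, 7.76 to 11.7%, against 8.03%) the share of distal peaks lay within the interval of the members. AP-1 letters were in 5.59% of the distal members and 11.3% of the distal peaks. The 50 bp windows of the members were poorer in G and C, 47.2% ± 8.11 (SD over 1016 sites), than those of all day 11 peaks, 56.5% ± 12.2, and the part of this in the AT-rich motifs was not tested.

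The score entered the selection, so the share of GATA letters by score is a description. They were in 21 of the 137 members that scored 200 and over (15.3%, 9.75 to 22.5%), in 18 of the 244 between 150 and 200 (7.38%) and in 38 of the 635 under 150 (5.98%, 4.27 to 8.12%). Over all day 11 peaks the same classes had 2.19%, 3.56% and 3.39%. Other letters did not follow this order in the members. From the highest to the lowest class, FOX letters were in 2.92%, 7.79% and 3.78%, SOX letters in 13.1%, 16% and 9.61%, and AP-1 letters in 2.19%, 6.97% and 5.83%. By earlier presence, GATA letters were in 29 of the 283 members without a peak before day 9 (10.2%, 6.97 to 14.4%) and in 21 of the 363 open at days 1 and 5 (5.79%, 3.62 to 8.71%), whose intervals overlap. GATA letters were in 7.31% of the members with a SALL4-delN12 SALL4 peak (5.47 to 9.52%) and 8.13% of those without (5.43 to 11.6%), whose intervals also overlap.

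**Figure D3:**
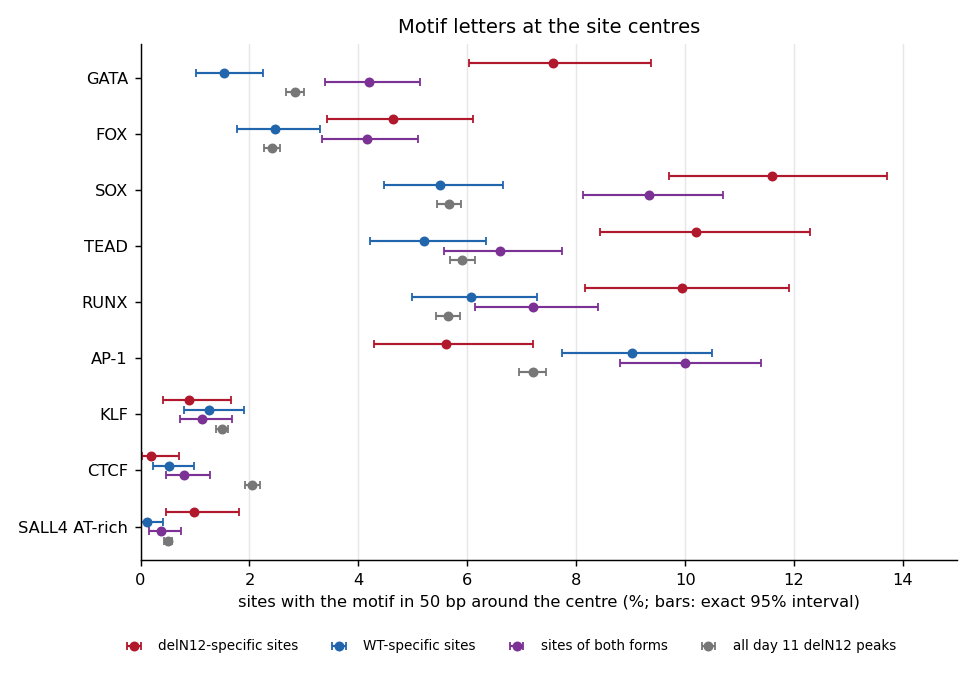
Share of sites (%, with exact 95% intervals) that hold each motif in 50 bp around the centre, for the members, the WT-specific sites, the sites of both forms and all day 11 SALL4-delN12 peaks. GATA letters are in 7.58% of members and 1.54% of WT-specific sites, whereas AP-1 letters are in 5.61% and 9.03%.

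The nearest gene within 100 kb was taken for 890 members, which gave 826 genes, and 126 members were farther from any start site of the expression table. At day 11, 518 of these genes had an FPKM, a fragment count scaled to transcript length and library size, of at least 1 in either form. The difference of log2(FPKM+1), SALL4-delN12 minus SALL4-WT, had a median of 0.09 over them and of 0.0053 over all 13946 genes with the same minimum. This small median was 0.012 over genes near members of any score and 0 without the FPKM minimum. Of the 518 genes, 71 (13.7%, 10.9 to 17%) were at least 2-fold higher with SALL4-delN12, against 6.55% of all genes, and 32 (6.18%) were at least 2-fold lower, against 6.58%. Without the FPKM minimum, over all 826 nearest genes, the share of higher genes was 8.6%. A 2-fold rise on this scale needs an FPKM of at least 1, so these were the same 71 genes. The matching count over all genes was 914 of 35976, and the 6.55% does not apply to that base. At day 9, 73 of 506 genes were at least 2-fold higher (14.4%, against 6.09%) and 33 lower (6.52%, against 5.75%). At day 5 the counts were 38 of 486 higher (7.82%, against 4.67%) and 29 lower (5.97%, against 5.19%), and at day 1 they were 33 of 457 higher (7.22%, against 4.18%) and 29 lower (6.35%, against 5.63%). The excess over the background was thus in the higher genes and was greatest at days 9 and 11, the days that defined the sites. Most of the genes near a member did not differ by 2-fold in either direction.

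The other groups of sites differed from this. Among genes nearest to WT-specific sites, 3.23% were at least 2-fold higher with SALL4-delN12 at day 11 and 11% lower, and among genes nearest to sites of both forms 7.04% and 8.25%. Of the 71 genes near members that were higher at day 11, 49 were also at least 2-fold higher at day 9 and 24 at day 5. With a member within 2 kb of the start site, 14 of 62 genes (22.6%) were at least 2-fold higher at day 11 and 1 lower. At 2 to 10 kb, 25 of 170 were higher (14.7%) and 13 lower (7.65%), and at 10 to 100 kb 39 of 304 (12.8%) and 18 (5.92%). Of the 38 genes nearest to at least 2 members, 23.7% were higher (11.4 to 40.2%). With a SALL4-delN12 H3K27ac peak at the member, 31 of 209 were higher (14.8%) and 15 lower (7.18%). With a SALL4-delN12 SALL4 peak, 40 of 345 were higher (11.6%) and 26 lower (7.54%).

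**Figure D4:**
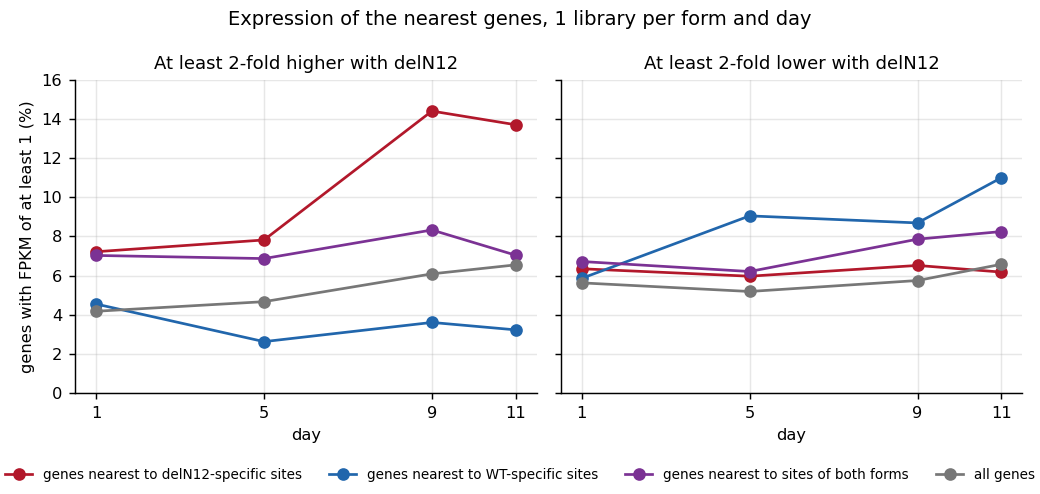
Share of genes (%) with FPKM of at least 1 that were at least 2-fold higher (left) or lower (right) with SALL4-delN12 at each day, for the genes nearest to members, to WT-specific sites and to sites of both forms, and for all genes. Genes nearest to members go from 7.22% higher at day 1 to 13.7% at day 11, and those nearest to WT-specific sites from 4.55% to 3.23%; each point is 1 library per form.

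The largest rise near a member was that of Sox17, a transcription factor of PrE and definitive endoderm. It was listed at 0, 0.16, 4.88 and 16.2 FPKM with SALL4-delN12 at days 1, 5, 9 and 11, and at 0.02, 0, 0 and 0.22 FPKM with SALL4-WT. It was thus near 0 in both forms until day 5 and high only in the SALL4-delN12 libraries of days 9 and 11, with a difference of 3.81 in log2(FPKM+1) at day 11. Its member, chr1:4492065-4492331, lay in a coding exon 1.41 kb from a start site, scored 53.12 at day 9 and 103.34 at day 11, was absent from SALL4-delN12 at days 1 and 5, and overlapped a SALL4-WT peak of 59.25 at day 5. No SALL4 or H3K27ac peak of either form overlapped it.

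Ihh, the gene of a hedgehog ligand made by visceral endoderm, was at 0, 0.11, 2.52 and 10.8 FPKM with SALL4-delN12 and at 0.27, 0, 0.07 and 0.3 FPKM with SALL4-WT, a day 11 difference of 3.18. It had 2 members, chr1:74951366-74951959 at its start site, which scored 191.33 at day 11 and had no SALL4-delN12 peak before day 9, and chr1:74971707-74972112, which lay 20.2 kb upstream in an intron of Nhej1 and scored 298.2 (window printed above). Hkdc1, the gene of a hexokinase-like protein, followed the same course, at 0.17, 0.18, 1.84 and 6.35 FPKM with SALL4-delN12 and not over 0.12 FPKM with SALL4-WT. The Hkdc1 member was open at days 1 and 5, held GATA letters, had a SALL4-delN12 H3K27ac peak, and had SALL4 peaks of both forms, 156.03 with SALL4-delN12 and 185.41 with SALL4-WT. The intron site near Ihh had a SALL4 peak of SALL4-WT only (160.29).

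The other 3 of the 6 largest rises came early. Tmprss2, the gene of an epithelial serine protease, was at 2.5, 45.4, 16.1 and 19.5 FPKM with SALL4-delN12 at the 4 days and at 0.32, 0.54, 1.02 and 2.17 FPKM with SALL4-WT. Cryaa, the gene of the chaperone alpha-A crystallin of the lens, went from 8.14 to 175 FPKM with SALL4-delN12 and from 3.71 to 29.4 FPKM with SALL4-WT. Fzd10, the gene of a Wnt receptor, was at 31.8 FPKM at day 5 and 23.7 FPKM at day 11 with SALL4-delN12, against 1.7 and 4.12 FPKM. The 2 members of Tmprss2 were open at days 1 and 5, those of Fzd10 and the Cryaa start site from day 5. SALL4-WT peaks also overlapped 1 Tmprss2 member at days 1 and 5 (65.33 and 58.31) and the other at day 5 (63.14). The Cryaa site overlapped a SALL4-WT peak of 69.22 at day 5.

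The 6 largest falls near members included matrix and secreted signalling genes. Efemp1, which encodes a fibulin-type matrix protein, was at 3.01, 2.55, 2.01 and 3.24 FPKM with SALL4-delN12 and at 5.02, 17.7, 20.8 and 43.2 FPKM with SALL4-WT, so that the difference of −3.38 at day 11 came from a rise in the SALL4-WT libraries. Gda, the gene of guanine deaminase, and Adamts12, the gene of a matrix metalloprotease, also rose with SALL4-WT, to 17.6 and 6.7 FPKM at day 11, against 3.32 and 0.49 FPKM with SALL4-delN12, where Gda rose too, from 0.67 FPKM at day 1. Sfrp2, the gene of a secreted Wnt modulator, was lower with SALL4-delN12 from day 1 (12.3 against 313.9 FPKM) to day 11 (13.4 against 60.1 FPKM), and so was the chemokine gene Cxcl1 (10.4 against 147.7 FPKM at day 1, and 13 against 57.3 FPKM at day 11). Slco2a1, the gene of a prostaglandin transporter, was at 17.4 FPKM against 74.7 FPKM at day 11. These members, too, opened with SALL4-delN12 and not with late SALL4-WT, so the gene nearest to a member could be either higher or lower. A SALL4-delN12 SALL4 peak overlapped at least 1 member of each of these 6 genes and of 3 of the 6 largest rises. These are counts of genes, some with several members, so the 67.3% of single members is not their background.

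**Figure D5:**
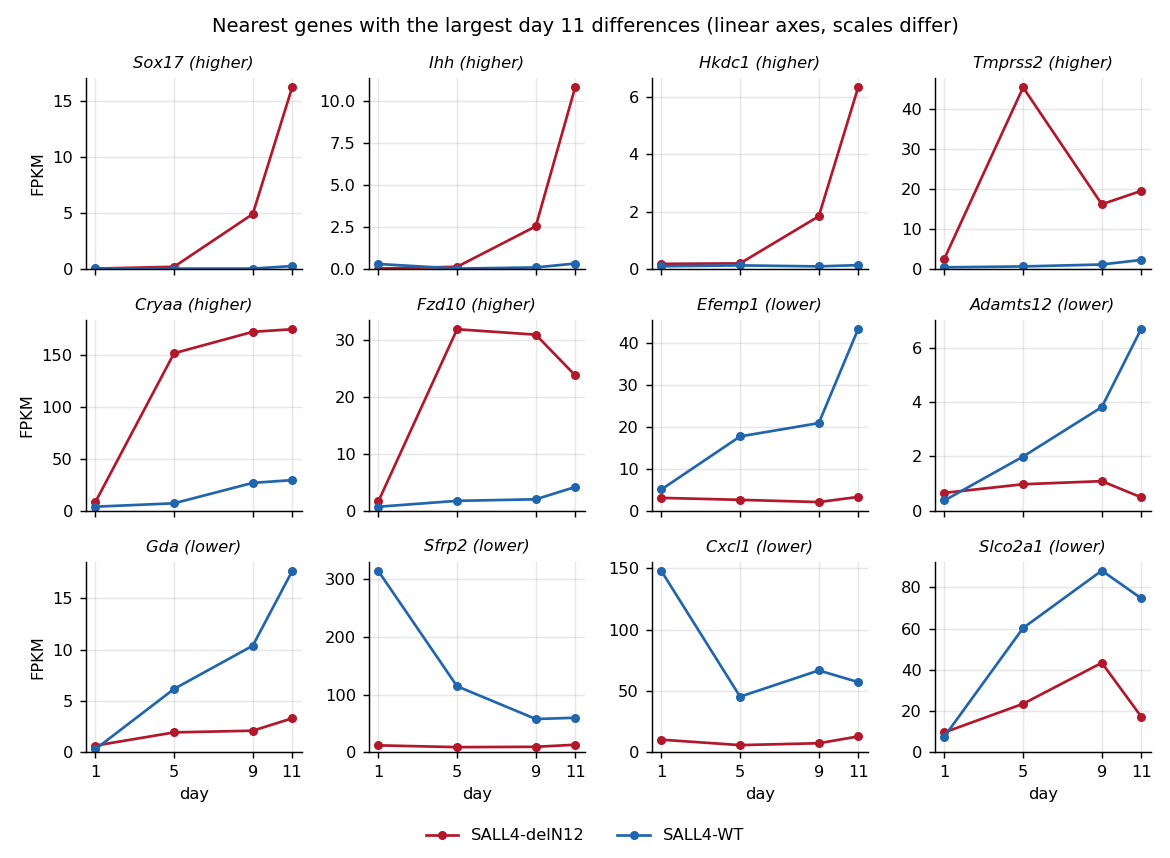
FPKM by day of the 6 nearest genes with the largest rise and the 6 with the largest fall at day 11, with SALL4-delN12 and SALL4-WT as 1 library per point and separate linear axes. Sox17, Ihh and Hkdc1 stay near 0 until day 5 and reach 16.2, 10.8 and 6.35 FPKM with SALL4-delN12 at day 11, whereas Tmprss2 peaks at 45.4 FPKM at day 5.

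Of the 10 genes nearest to the most members, Slc2a3, Arhgef28 and Tmprss2 were at least 2-fold higher with SALL4-delN12 at day 11 and none was 2-fold lower. The share of higher genes among all nearest genes was 13.7%. Slc2a3 had 4 members and rose with SALL4-delN12 from 3.66 to 25.4, 30.2 and 40.5 FPKM, against 0.79, 7.41, 11.2 and 12.2 FPKM with SALL4-WT. Its members scored 143.82, 363.55, 103.06 and 246.28 at day 11, and 2 of them had no SALL4-delN12 peak before day 9. Rapgef5, Dysf, Foxp4, Ube2e2, Arhgef28, Slc17a5 and Prkce had 3 members each. Among them, Arhgef28, the gene of a guanine nucleotide exchange factor, was at 2.87 against 0.9 FPKM, and the lysosomal sialic acid transporter Slc17a5 was at 12.8 against 6.9 FPKM. Ube2e2, a ubiquitin-conjugating enzyme gene, was at 10.6 against 13.2 FPKM and Prkce, a protein kinase C gene, at 2.57 against 2.8 FPKM. A pair of Ube2e2 members lay side by side and shared the same earlier peaks, so they are not independent. Tmprss2 and the noncoding gene 9030622O22Rik, with 2 members each, completed the 10, and the latter was at 0.26 FPKM with SALL4-delN12 at day 11 and at 0.004 FPKM with SALL4-WT. These were taken from the 47 genes with 2 members by the summed day 11 score. Of all named genes, some also held WT-specific sites in the gene or within 50 kb, 5 at Prkce, 2 at Fgfr2 and 1 each at Slc2a3, Dysf, Sox17, Col4a1, Col4a2, Apoe and Efemp1.

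Some genes known from endoderm had a member nearby. Of the 67 genes in 4 endoderm lists, 11 (16.4%) had a member in the gene body or within 50 kb of a start site, against 5.84% of the 26763 annotated genes and 7.36% of those with an FPKM of at least 1 at day 11. The 11 include Fgfr2, described further on, and Col4a1 and Col4a2, which have the same members. Of the marker lists of other cell types, 2 of 8 endothelial markers (Tek and Emcn), 2 of 8 trophoblast markers (Elf5 and Gata3), 1 of 5 keratinocyte markers (Sfn), 0 of 10 fibroblast, 0 of 8 macrophage and 0 of 5 muscle markers had one. WT-specific sites were near 14 of the 67 and sites of both forms near 16, against 10.8% and 13.6% of all genes. Of the 16 PrE transcription factors, only Sox17 had a member, and Gata4, Gata6, Sox7 and Foxa2 had none. In the list of PrE surface and signalling genes, 3 of 20 had a member (Pdgfra, Fgfr2 and Ihh), in the parietal endoderm matrix list 6 of 15, and in the visceral endoderm list 1 of 16 (Apoe). At day 11, 6 of 14 measured PrE factors were at least 2-fold higher with SALL4-delN12 and 0 lower, 13 of 17 surface and signalling genes higher and 1 lower, 3 of 15 matrix genes higher and 1 lower, and 5 of 9 visceral endoderm genes higher and 0 lower, against 6.55% and 6.58% of all genes. These counts cover the whole lists, with or without a member. Of the 11 genes with a member, only Sox17, Ihh and Fbln2 were at least 2-fold higher, and none was 2-fold lower.

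The matrix genes with members were Lamc1, Col4a1, Col4a2, Hspg2, Fbln1 and Fbln2. Fbln2, which encodes a basement membrane fibulin, was at 514, 727, 577 and 425 FPKM with SALL4-delN12 and at 269, 276, 236 and 186 FPKM with SALL4-WT, higher at all 4 days. Its 2 members scored 139.01 and 163.71, and neither had a SALL4-delN12 peak at day 1. Col4a1 and Col4a2, the collagen IV chains of the parietal endoderm matrix, share a promoter region and had the same 2 members, neither with a SALL4-delN12 peak before day 9. Col4a1 was at 105, 39.6, 87.4 and 181 FPKM with SALL4-delN12 and at 104, 140, 198 and 172 FPKM with SALL4-WT, lower at days 5 and 9 and within 0.07 in log2(FPKM+1) at day 11. Hspg2, the gene of perlecan, was at 28.4 against 47.7 FPKM at day 11, Fbln1 at 41.2 against 42.4 FPKM and the laminin gene Lamc1 at 119 against 87.3 FPKM. The 2 members near Lamc1 lay 37.6 and 43.1 kb from its start site.

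Of the remaining endoderm genes, Pdgfra, the gene of the PDGF receptor of PrE, had 1 member in an intron (109.96) and was at 45.2 against 36.5 FPKM at day 11. Apoe, the gene of a lipid carrier, was at 1870 against 1863 FPKM. Fgfr2, the gene of an FGF receptor, was at 10.6 against 5.45 FPKM, and its 3 members count only because an annotated transcript extends the gene over its neighbours: they lay 189, 1080 and 358 kb from its start sites. The member on chr7:130455428-130456017 is nearer to Ate1 and had the highest SALL4-delN12 SALL4 score of the named sites, 637.06. In the pluripotency list, 2 of 20 genes (Dppa3 and Gdf3) were near the same member. Over the whole list, with or without a member, 5 of 8 measured genes were at least 2-fold higher and 1 lower at day 11.

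Reprogramming with Jdp2, Glis1, Esrrb and Sall4 (JGES), a different factor set, showed how the same genes behaved with and without BMP4 at day 7. Of 528 genes nearest to members with an FPKM of at least 1, 67 (12.7%) were at least 2-fold higher with BMP4, against 10.3% of all genes, and 43 (8.14%) lower, against 13.8%. The genes nearest to WT-specific sites gave 12.9% and 7.07%, so these shares did not set the members apart. In the single-cell sample of JGES with BMP4, 2372 cells carry the authors' label ParE, which the sources used here do not spell out and which is not read as parietal endoderm here. Between these and the other cells of that sample, 60 of 438 genes near members (13.7%) were at least 2-fold higher in ParE cells, against 8.4% of all genes, and 88 (20.1%) lower, against 14.2%. Genes near WT-specific sites were higher in 7.82% and lower in 19.1%. Sox17 was at 263 CPM (counts scaled to the total of the cells, exact Poisson interval 258 to 267) in ParE cells and 11.7 CPM (11.2 to 12.2) in the others, Ihh at 48.9 (47.2 to 50.7) against 1.44 CPM (1.28 to 1.62), Hkdc1 at 23.6 (22.4 to 24.8) against 0.36 CPM (0.28 to 0.45) and Tmprss2 at 35.7 (34.2 to 37.2) against 2.8 CPM (2.58 to 3.04). Cryaa was near 0 in both groups (0.65 and 0.4 CPM), and Fzd10 was lower in ParE cells (2.07 against 14.5 CPM). Among the matrix genes with members, Fbln2 was also lower in ParE cells (14.2 against 43.3 CPM) and Hspg2 was similar (52.3 against 53.5 CPM). Col4a1, Col4a2, Lamc1 and Fbln1 were higher in ParE cells. The intervals cover counting error within 1 sample, and 2 cell barcodes were shared by the samples with and without BMP4. No doublet caller was run here, and removal of doublets is not described in the sources used here.

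Markers of other cell types differed between the forms in the bulk libraries. The 10 fibroblast markers were all at 1 FPKM or more in each of the 8 libraries, but 7 of them were lower with SALL4-delN12 at day 11 and 8 at day 5. Their median was 36.5 against 97.6 FPKM at day 5 and 46.7 against 82.8 FPKM at day 11, whereas their sum, mostly Col1a1 and Col1a2, was 2266 against 2127 FPKM at day 5 and 1985 against 2248 FPKM at day 11. At day 11 Postn was at 18.6 against 117.6 FPKM, and Col1a1 at 1066 against 755 FPKM. The 10 PrE markers summed to 191, 127, 253 and 460 FPKM with SALL4-delN12 at days 1, 5, 9 and 11 and to 176, 239, 315 and 294 FPKM with SALL4-WT, and all 10 reached 1 FPKM with SALL4-delN12 at days 9 and 11. Col4a1 makes up much of these sums, and 7 of the 10 were higher with SALL4-delN12 at day 9 (median 14.2 against 7.9 FPKM) and 9 at day 11. The 5 keratinocyte markers summed to 16.7, 54.7, 30.2 and 31.3 FPKM with SALL4-delN12 and to 15.4, 5.79, 9.45 and 20.3 FPKM with SALL4-WT. At day 11, 3 of these 5 were higher with SALL4-delN12 and 2 lower, with Krt14 at 14.8 against 3.6 FPKM and Krt5 at 3.29 against 7.76 FPKM. The 8 macrophage markers summed to 188.5 to 418.7 FPKM with SALL4-delN12 and to 29.1 to 134.2 FPKM with SALL4-WT, with C1qa at 116 against 3.88 FPKM at day 11, and none was at 0. The 8 trophoblast markers summed to 504.7 to 657.4 FPKM against 97.88 to 131.7 FPKM, mostly from Krt8 and Krt18. Of the 8 endothelial markers, 5 were higher with SALL4-delN12 at day 11 and 2 lower, and of the 5 muscle markers 1 was higher and 4 lower. None of the 8 macrophage markers had a member in its body or within 50 kb, and none was among the 71 nearest genes that were higher at day 11. The endothelial marker Tek was (1.29 against 0.13 FPKM). So were Alox5ap, Fcgr1 and Plek, genes of leukocytes picked out after their values were seen (17.2 against 3.69, 1.94 against 0.02 and 4.63 against 1.06 FPKM). The part of these cell types in the members was not tested. Sall4, a sum of the delivered and the cells' own transcripts, was higher with SALL4-delN12 at all 4 days. It was at 809, 623, 971 and 428 FPKM with SALL4-delN12 and at 549, 491, 518 and 290 FPKM with SALL4-WT. The part of this difference in the members was not tested.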

How the data were processed

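The peak lists were made by the authors, who trimmed the reads, mapped them to mm10 with Bowtie2 2.4.5, kept for ATAC-seq only short fragments with duplicates retained, merged Cut&Tag replicates, and called peaks with MACS 1.4.2. The deposited score of a peak is a transformed p-value that grows with depth, and the number of reads behind it is unknown. For RNA-seq the authors deposited FPKM values from HISAT2 2.2.1 and StringTie 2.2.1. For single cells the authors deposited UMI counts per cell with their cell labels, and 10749 columns of cells from other work were not used. The label ParE was used as given. The depth behind FPKM is unknown, so no counting interval was given for it.

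Peaks were joined to GENCODE vM21 genes by the centre, with mm10 (GRCm38) sequence, in Python 3.11.15 with pandas 2.3.3 and SciPy 1.17.1, and the overlap functions were tested on simulated data. Genes were compared as differences of log2(FPKM+1) where either form reached an FPKM of 1. UMI counts were summed over cells and given as CPM, with 5 CPM in either group as the minimum. The named genes are the 10 nearest to the most members (ties by summed day 11 score), the endoderm list genes with a member, and the 6 largest rises and 6 largest falls among nearest genes with an FPKM of at least 5; the 10 members of highest score and the highest of each list gene are the named sites. Members, lists and the rules for naming were chosen with earlier results of these data known. The alternatives are other score limits, overlap rules, promoter and motif windows, gene assignments, pseudocounts and filters. Some genes and motifs of the lists are not reported here.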

Additional observations from a re-analysis of the deposited data

How the results depend on the processing

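Of 113 alternative values, 66 stayed within the interval of the value reported (for the number of members, within 1.5 times) and 47 moved beyond it. Only the median differences could change sign, and none did, although the median without an FPKM minimum was 0. Without a minimum score there were 3521 members, of which 55.1% had a SALL4-delN12 ATAC-seq peak at day 5, and the nearest genes had a median day 11 difference of 0.012 with 10.4% at least 2-fold higher. From a score of 200 there were 137 members, with 62.8% for SALL4-delN12 SALL4, 15.3% for GATA, 2.92% for FOX and 2.19% for AP-1 letters, a median of 0.317 and 20.3% higher. With a day 9 peak over at least 0.5 of the member, day 5 SALL4-delN12 ATAC-seq gave 72% and its SALL4 71%. Without members that had a MEF or SALL4-WT peak within 500 bp, H3K27ac was at 27.8% (SALL4-delN12) and 2.4% (SALL4-WT) and SALL4-WT SALL4 at 21.3%. Without those with an early SALL4-WT peak, the last 2 were at 3.03% and 20.3%.

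When a peak within 1 kb counted, day 5 ATAC-seq gave 72.4% (SALL4-delN12) and 24.9% (SALL4-WT), H3K27ac 38.2% and 6.99%, and SALL4-WT SALL4 31.6%. With only peaks that scored at least 100, these were 35.6% and 2.17%, 20.9% and 1.87%, and 12.9%, and SALL4-delN12 SALL4 was 51.4%. The shares of all day 11 peaks with this minimum are not given. With a peak over at least 0.5 of the member, day 5 gave 57.1% and 7.97%. With equal numbers of the highest-scoring peaks, chosen after the list sizes were seen, SALL4-delN12 H3K27ac fell to 11.4%. Promoters held 7.48% with 1 kb to each side and 7.78% with protein-coding starts only. In 200 bp, GATA, FOX, SOX and AP-1 letters were in 28.8%, 18.5%, 38.7% and 18.2% of members. The same letters were in 11.6%, 9.91%, 21.5% and 19.6% of all day 11 peaks. In the whole peak, the member shares were 35.5%, 24%, 46.3% and 20.1%. The whole-peak shares of all day 11 peaks are not given, so these values do not compare the members with other peaks. Genes nearest to at least 2 members had a median of 0.398 and 23.7% higher. Without an FPKM minimum these were 0 and 8.6% over the nearest genes, where 914 of all 35976 genes were higher. With a pseudocount of 0.1, 17.6% were higher, and the share of all genes with it is not given. Where the construction of an alternative does not show it, the cause was not tested.

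Each group has 1 sample, and the groups of a day share only replicate number 1, so no pairing within a day was made. The forms were sampled at 4 matched days, and a comparison paired by day was not run. The score minimum, the unknown depth and unequal list sizes limit every statement that a peak is absent.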
